A study of Homo sapiens with 4 samples.

Results

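The Sprouty, SPRED and DUSP feedback genes form a set of 10 genes, named by symbol and looked up among the 63677 Ensembl genes of the count table, and all 10 were found. They are *SPRY1*, *SPRY2*, *SPRY4*, *SPRED1*, *SPRED2*, *SPRED3*, *DUSP4*, *DUSP5*, *DUSP6* and *ETV5*. LX-2 cells, an established human line of stellate cells, the fibre-producing cells of the liver, were transfected with 20 nM of the miR-6133-5p mimic or of miControl, a control mimic. Both groups received 5 ng/mL of rhTGF-β1, and RNA was collected 24 h later. Each group had 2 libraries, replicates 1 and 2, and their counts on genes were 51862006 and 57903388 in the miControl group, against 61747010 and 93811213 in the miR-6133-5p group. Nothing in the labels says that the replicates came from separate cultures, so the p-values measure the spread between these libraries, which may be technical.

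Growth factor receptors signal through RAS, RAF and MEK to the kinase ERK, and ERK switches on genes whose products brake the same route. Sprouty and SPRED proteins act upstream, at the level of receptors, RAS and RAF, whereas the dual-specificity phosphatases DUSP4, DUSP5 and DUSP6 remove the activating phosphates from ERK itself. Their transcript levels are often read as a sign of ERK output. In hepatic stellate cells, ERK signalling downstream of growth factors is known for its part in proliferation and activation.

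Of the 10 feedback genes, 3 fell in the miR-6133-5p libraries, namely *SPRY2*, *SPRY4* and *DUSP5*, to 50.8%, 47.6% and 46.3% of the miControl level, and 0 rose. *SPRED2* and *DUSP6* were also lower at the same adjusted p-value but by less than the fold threshold. The remaining 5 genes did not pass the test. A call required an adjusted p-value under 0.01 together with a log2 fold change beyond 0.8, in a quasi-likelihood test fitted with edgeR over 18252 genes. Across those genes, 5.54% were called lower and 2.90% higher. The 10 feedback genes were chosen with earlier results of these data known, so the shares of all genes stand beside them as a description only. At an adjusted p-value below 0.01 (edgeR, Benjamini–Hochberg) with no fold threshold, 5 of the 10 genes were lower and 0 were higher, against 10.9% and 7.96% of all genes. *DUSP6* left that count without miControl replicate 1, *SPRED1* joined it without miR-6133-5p replicate 2, and with library totals *DUSP4* passed it in the higher direction. *DUSP4* did so too with replicate number as a block, at 0.40 on the log2 scale (edgeR adjusted p of 0.00969). At an unadjusted p below 0.05 in the edgeR model, 6 were lower and 1 was higher, against 20.3% and 20.0% of all genes. DESeq2 with the same thresholds called 3 lower and 0 higher of the 9 feedback genes to which it gave an adjusted p (*SPRY1* had none), against 6.43% and 3.08% of 15220 genes. The median log2 fold change of the 10 genes was -0.74, and that of all genes was 0.03. The 2 miR-6133-5p libraries were both below the miControl pair for 8 of the 10 genes and both above it for 2, against 31.3% and 33.2% of all genes. Fewer cells of a kind and less RNA per cell cannot be told apart in bulk RNA.

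The precursor hairpin of the transfected microRNA is shown because it names the agent that separates the groups. It comes from RefSeq and lies at chr7:133290881-133290988 on the plus strand of GRCh38.p14, written 5′ to 3′ in lower case.
MIR6133 hairpin: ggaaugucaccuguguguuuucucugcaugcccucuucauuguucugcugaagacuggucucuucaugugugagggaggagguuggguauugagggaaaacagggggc

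**Figure D1:**
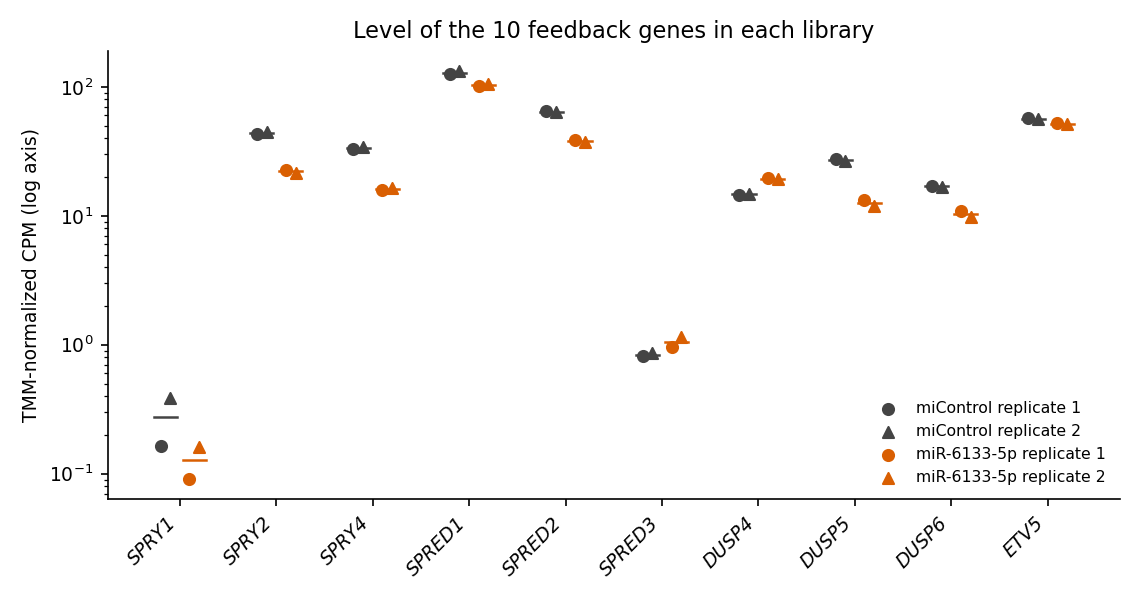
Level of each of the 10 feedback genes in the 4 libraries, as TMM-normalized counts scaled to library size (CPM) on a log axis. Points are libraries and bars are group means. *SPRY2*, *SPRY4*, *SPRED2*, *DUSP5* and *DUSP6* show miR-6133-5p points well below the miControl points, while *DUSP4* shows them above.

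*SPRY2* (ENSG00000136158, chromosome 13 from 80910111 to 80915261, GRCh37) encodes a Sprouty protein that damps receptor tyrosine kinase signalling. It had 2101 and 2414 counts with miControl and 1490 and 2127 with miR-6133-5p, which correspond to 42.7 and 44.3 CPM against 22.8 and 21.5 CPM. Both miR-6133-5p libraries were low and the groups did not overlap. The log2 fold change was -0.98 (standard error, SE, 0.106, edgeR adjusted p of 1.62e-05). *SPRY4* (ENSG00000187678, chromosome 5 from 141689992 to 141706020), a second Sprouty gene, had 1630 and 1869 counts with miControl and 1030 and 1620 with miR-6133-5p, or 33.2 and 34.3 CPM against 15.8 and 16.3 CPM. Again the miR-6133-5p libraries were both low, without overlap. Its log2 fold change was -1.07 (SE 0.109, edgeR adjusted p of 9.56e-06).

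*SPRY1* (ENSG00000164056, chromosome 4 from 124317950 to 124324915) was barely expressed, with 8 and 21 counts in miControl against 6 and 16 in miR-6133-5p. These are 0.163 and 0.386 CPM against 0.0918 and 0.161 CPM. The lower miControl library and the higher miR-6133-5p library were nearly level, and replicate 2 was the higher one in each group. Its log2 fold change of -1.08 had a 95% interval from -2.48 to 0.32 (adjusted p = 0.240, edgeR), so a difference was not detectable at this depth. With each library left out in turn the estimate ran from -1.58 to -0.35.

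Among the SPRED genes, whose products bind RAS regulators and hold back RAF activation, *SPRED2* (ENSG00000198369, chromosome 2 from 65537985 to 65659771) had 3194 and 3470 counts with miControl and 2513 and 3701 with miR-6133-5p. Scaled for depth, these were 65.0 and 63.7 CPM against 38.4 and 37.3 CPM, with both miR-6133-5p libraries low and no overlap. The log2 fold change was -0.76 (SE 0.100, edgeR adjusted p of 8.25e-05), just short of the fold threshold. Without miControl replicate 2 it was -0.81 and without miR-6133-5p replicate 1 it was -0.80, and in both cases *SPRED2* was called lower. *SPRED1* (ENSG00000166068, chromosome 15 from 38545037 to 38649450) was at 125 and 132 CPM with miControl (7207 counts in replicate 2) and, with 6659 and 10490 counts, at 102 and 106 CPM with miR-6133-5p. The groups did not overlap, but the log2 fold change of -0.31 (95% interval -0.53 to -0.09, adjusted p = 0.0354, edgeR) did not pass. Over the alternatives other than glmTreat its adjusted p ran from 0.00681, at -0.35 without miR-6133-5p replicate 2, to 0.296 with library totals (edgeR). *SPRED3* (ENSG00000188766, chromosome 19 from 38879061 to 38890227) was scarce, with 40 and 47 counts against 63 and 114, or 0.814 and 0.863 CPM against 0.964 and 1.15 CPM. Its miR-6133-5p libraries were the higher ones by a small margin, with a log2 fold change of 0.34 (95% interval -0.34 to 1.02, adjusted p = 0.465, edgeR).

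The phosphatase genes did not move as one. *DUSP5* (ENSG00000138166, chromosome 10 from 112257665 to 112271291), which encodes a nuclear ERK phosphatase, had 1364 and 1455 counts with miControl and 871 and 1180 with miR-6133-5p, or 27.7 and 26.7 CPM against 13.3 and 11.9 CPM. Both miR-6133-5p libraries were low and the groups were well apart. The log2 fold change was -1.11 (SE 0.117, edgeR adjusted p of 1.25e-05). *DUSP6* (ENSG00000139318, chromosome 12 from 89741012 to 89746278), which encodes a cytoplasmic ERK phosphatase, had 839 and 911 counts against 715 and 965, or 17.1 and 16.7 CPM against 10.9 and 9.73 CPM. Scaled for depth, the miR-6133-5p libraries were both low, without overlap. Its log2 fold change of -0.71 (SE 0.123, edgeR adjusted p of 7.08e-04) was short of the fold threshold, and it was -0.81, and called lower, without miR-6133-5p replicate 1. It was -0.64 without miR-6133-5p replicate 2 and -0.55 with library totals, and without miControl replicate 1 its adjusted p of 0.0215 (edgeR) was above 0.01. Over the alternatives other than glmTreat its adjusted p ran from 3.12e-06 to that value. Of the exon bases of *DUSP6*, 28.6% lie under exons of an opposite-strand gene, and without strand in the counting its level would hold reads of both genes.

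*DUSP4* (ENSG00000120875, chromosome 8 from 29190581 to 29208201), another nuclear MAP kinase phosphatase gene, had 710 and 808 counts with miControl and 1274 and 1899 with miR-6133-5p, or 14.4 and 14.8 CPM against 19.5 and 19.2 CPM. Here the miR-6133-5p libraries were the high ones and did not overlap with miControl. The log2 fold change of 0.40 (95% interval 0.15 to 0.65, adjusted p = 0.0175, edgeR) did not pass. *ETV5* (ENSG00000244405, chromosome 3 from 185764103 to 185828107), an ETS transcription factor gene switched on by ERK, had 2815 and 3056 counts against 3405 and 5124, or 57.3 and 56.1 CPM against 52.1 and 51.7 CPM. Its groups lay close together without overlapping, with a log2 fold change of -0.13 (95% interval -0.34 to 0.09, adjusted p = 0.373, edgeR). Of its exon bases, 2.8% are shared with a same-strand neighbour.

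**Figure D2:**
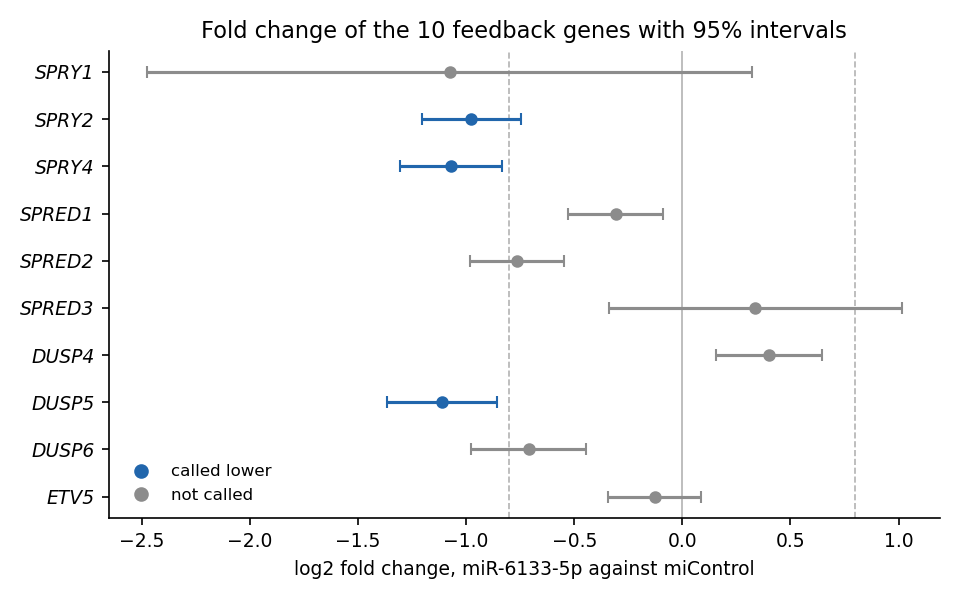
Log2 fold change of miR-6133-5p against miControl for each feedback gene, with 95% intervals from the edgeR fit as bars. Dashed lines mark 0.8 in either direction. *SPRY2* at -0.98, *SPRY4* at -1.07 and *DUSP5* at -1.11 are the called genes, and the widest interval is that of *SPRY1*.

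Scaling mattered for the smaller differences. With libraries scaled by their totals alone, the median log2 fold change of all genes moved from 0.03 to 0.19, and the genes called lower made up 42.1% of all calls in place of 65.6%. Under this scaling *SPRY2* (-0.81), *SPRY4* (-0.91) and *DUSP5* (-0.95) were still called lower, whereas *ETV5* was at 0.036 and *SPRED1* at -0.14. As the scaling moved genes alike, the change of sign of *ETV5* is no result about that gene. *DUSP4* was at 0.56, higher at an adjusted p of 0.00187 (edgeR) but short of the fold threshold, and over the alternatives other than glmTreat its adjusted p ran from that value to 0.167. When glmTreat tested fold changes against the threshold itself, 0 of the 10 genes were called. An exact permutation test of 2 libraries against 2 has 0.333 as its smallest p, and the edgeR p-values borrow variance from other genes.

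To compare levels between genes, the CPM was divided by the length of the canonical transcript in kilobases. The order depends on that choice. With all exon bases of a gene in its place (3213 for *SPRY2* and 7750 for *SPRED1*), *SPRED1* would lead in both groups. By canonical length, *SPRY2* was the highest in the miControl group at 19.0 ± 0.490 CPM per kb (SD, n = 2), followed by *SPRED1* at 17.7 ± 0.736. *SPRED2* at 14.2 ± 0.197 and *ETV5* at 13.9 ± 0.199 CPM per kb did not differ beyond their spread. With all exon bases (5505 and 5773), *SPRED2* would stand above *ETV5*. *DUSP5* at 10.99 ± 0.294 CPM per kb, *SPRY4* at 6.88 ± 0.167, *DUSP6* at 4.66 ± 0.0663 and *DUSP4* at 2.64 ± 0.05005 came next, with *SPRED3* and *SPRY1* at 0.175 ± 0.00728 and 0.105 ± 0.0605. In the miR-6133-5p group the order of levels by canonical length was different. *SPRED1* led at 14.3 ± 0.386 CPM per kb, ahead of *ETV5* at 12.7 ± 0.0677, and *SPRY2* followed at 9.68 ± 0.412. *DUSP4* at 3.48 ± 0.0420 CPM per kb stood above *SPRY4* at 3.27 ± 0.0848 and *DUSP6* at 2.85 ± 0.234. With all exon bases (7273 for *DUSP4* and 3859 for *DUSP6*), *DUSP4* and *DUSP6* would be nearly level in this group.

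Promoter sequences are shown for the feedback genes that were lower at an adjusted p below 0.01 (edgeR) and had a window. RefSeq windows of 300 bases on GRCh38.p14, from 250 bases before the start to 50 after it, matched 7 of the 10 genes, and the most upstream window was taken for each. A first search on both strands used 5 motifs, the ETS motif CCGGAAGT, the CIC motifs TGAATGAA and TGAATGGA, the AP-1 motif TGANTCA and the CRE motif TGACGTCA. None had a match in any of the 7 windows, while 4.14%, 1.65%, 1.03%, 7.71% and 1.85% of 35114 windows of all genes held them. After this had been seen, the ETS and CIC letters were shortened to CCGGAA and TGAATG, which lie within the longer forms and are found in 17.2% and 11.8% of all windows. Each of these 2 shorter motifs then matched 1 of the 7 windows, CCGGAA that of *SPRY2* and TGAATG that of *DUSP6*. As the letters were shortened after the longer ones had given no match, and 7 motifs were searched in all, these matches are a description with no weight as a finding. The windows of *SPRY2* (chr13:80341077-80341376, minus strand), *SPRY4* (chr5:142324198-142324497, minus strand), *SPRED2* (chr2:65432550-65432849, minus strand) and *DUSP6* (chr12:89352452-89352751, minus strand) follow, with matches in capitals.
SPRY2: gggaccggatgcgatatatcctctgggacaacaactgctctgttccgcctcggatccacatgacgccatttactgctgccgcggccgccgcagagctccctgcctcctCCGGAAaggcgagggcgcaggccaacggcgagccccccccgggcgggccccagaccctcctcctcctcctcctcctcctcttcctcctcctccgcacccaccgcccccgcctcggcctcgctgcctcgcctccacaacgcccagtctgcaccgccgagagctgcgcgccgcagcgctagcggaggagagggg
SPRY4: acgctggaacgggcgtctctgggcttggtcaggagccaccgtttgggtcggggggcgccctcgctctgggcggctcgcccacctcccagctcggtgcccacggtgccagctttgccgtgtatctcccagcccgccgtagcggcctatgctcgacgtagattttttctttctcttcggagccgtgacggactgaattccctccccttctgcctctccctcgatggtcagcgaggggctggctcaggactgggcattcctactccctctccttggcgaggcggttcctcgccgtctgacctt
SPRED2: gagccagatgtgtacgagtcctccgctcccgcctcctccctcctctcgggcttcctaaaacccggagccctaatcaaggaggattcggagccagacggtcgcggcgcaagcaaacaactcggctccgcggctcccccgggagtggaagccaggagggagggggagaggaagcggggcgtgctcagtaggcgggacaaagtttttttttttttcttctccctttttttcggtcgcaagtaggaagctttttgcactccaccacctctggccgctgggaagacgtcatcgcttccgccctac
DUSP6: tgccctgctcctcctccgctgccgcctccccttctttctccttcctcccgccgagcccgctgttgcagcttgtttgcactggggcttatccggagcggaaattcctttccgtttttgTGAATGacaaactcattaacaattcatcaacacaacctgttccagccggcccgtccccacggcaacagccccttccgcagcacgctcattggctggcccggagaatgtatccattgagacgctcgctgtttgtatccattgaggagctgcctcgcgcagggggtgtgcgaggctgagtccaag

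Other genes of the same signalling route were described from lists of named genes. Their counts stand beside 5.54% of all genes called lower and 2.90% called higher, and beside 20.3% lower and 20.0% higher at an unadjusted p below 0.05 in the edgeR fit. Of 26 genes of the ERK cascade, from adaptors and RAS to ERK and its substrates, 1 was called lower and 0 higher, with a median log2 fold change of -0.26. The gene called lower was *RPS6KA2*, which encodes an ERK-activated kinase, at 48.5 and 44.7 CPM with miControl and 23.9 and 29.2 CPM with miR-6133-5p. Both miR-6133-5p libraries were low, and the log2 fold change was -0.81 (SE 0.120, edgeR adjusted p of 2.22e-04). Several alternatives did not call *RPS6KA2*. It was at -0.76 without miControl replicate 1, at -0.69 without miR-6133-5p replicate 1 and at -0.64 with library totals. With counts thinned to the smallest library it was at -0.78, and with no filter on low counts at -0.799. At an adjusted p below 0.01 (edgeR) with no fold threshold, the genes that were also lower included *NRAS* (-0.53) and *MRAS* (-0.65), while *GAB1* (0.75) and *RPS6KA1* (0.76) were higher, all named after their values were seen. With library totals *GAB1* (0.91) and *RPS6KA1* (0.93) were called higher, so that 0 genes of the list were called lower and 2 higher. Of all 18252 genes, 709 were called lower and 977 higher under that scaling. With it, *NRAS* no longer had an adjusted p below 0.01. With either miControl replicate left out, *NRAS*, *MRAS* and *GAB1* also had adjusted p-values above 0.01, while *RPS6KA1* remained below. At an unadjusted p below 0.05, 14 genes of the list were lower and 2 higher in the edgeR fit. The most abundant gene not called was *PTPN11*, which encodes the phosphatase SHP2, at a log2 fold change of -0.36.

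Of 7 other MAP kinase phosphatase genes, 5 could be tested, 2 fell and 0 rose. *DUSP10*, whose product acts on JNK and p38, was at 43.7 and 43.5 CPM with miControl and 20.1 and 17.8 CPM with miR-6133-5p. The groups were well apart, and the log2 fold change was -1.20 (SE 0.111, edgeR adjusted p of 3.86e-06). *DUSP16*, which encodes a JNK phosphatase, was at 54.1 and 58.8 CPM against 28.8 and 33.5 CPM. Its log2 fold change was -0.86 (SE 0.112, edgeR adjusted p of 8.01e-05), and it was -0.77 without miR-6133-5p replicate 1 and -0.69 with library totals, no longer past 0.8. *DUSP7*, the most abundant one not called, was at -0.35 on the log2 scale. *DUSP2* had 2 and 2 counts with miControl and 0 and 4 with miR-6133-5p, and *DUSP9* had 0 counts in the 4 libraries. At an unadjusted p below 0.05, 3 of the 5 tested genes were lower and 0 higher in the edgeR fit.

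Among 15 other brakes on receptor kinases and RAS, 4 fell and 1 rose, with a median log2 fold change of -0.48, and 9 were lower and 1 higher at an unadjusted p below 0.05 in the edgeR fit. *CBL* and *CBLB* encode ubiquitin ligases that send active receptors for degradation. *CBL* was at 148 and 150 CPM with miControl and 54.5 and 73.1 CPM with miR-6133-5p, with a log2 difference of -1.22 (SE 0.131, edgeR adjusted p of 1.50e-05). *CBLB* was at 72.0 and 79.6 CPM against 30.2 and 32.4 CPM, with a log2 difference of -1.28 (SE 0.107, edgeR adjusted p of 1.69e-06). In both genes the 2 miR-6133-5p libraries were the low ones. The RAS GTPase-activating protein genes went both ways. *RASA2* had a log2 fold change of -0.87 and *RASAL2* one of -0.95, while *RASA1* went from 130.2 and 142 CPM up to 239 and 258 CPM, with a log2 difference of 0.87 (SE 0.106, edgeR adjusted p of 4.38e-05). These calls were not kept in every fit with a library left out. *RASA2* was not called at -0.72 without miControl replicate 2, nor *RASAL2* at -0.797 without miR-6133-5p replicate 1. *RASA1* was not called at 0.799 without miControl replicate 1 or at 0.796 without miR-6133-5p replicate 2. With library totals, *RASA2* was at -0.70 and *RASAL2* at -0.79. Of the exon bases of *RASA1*, 14.7% lie under exons of *CCNH*, an opposite-strand gene. *LRIG3*, named after its value was seen, was lower by less than the fold threshold, at -0.63 (edgeR adjusted p of 0.00191), and its adjusted p was above 0.01 with library totals and with either miControl replicate left out. *PEA15*, the most abundant gene not called, was at -0.33 on the log2 scale.

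Of 12 other genes known to be induced by ERK, 4 fell and 0 rose, with a median log2 fold change of -0.29. *EGR1*, an immediate early transcription factor gene, was at 19.1 and 16.9 CPM with miControl and 3.43 and 3.40 CPM with miR-6133-5p. The groups were far apart, and the log2 fold change was -2.40 (SE 0.137, edgeR adjusted p of 9.62e-08). *EGR2* had a log2 fold change of -0.94 and *MYC* one of -0.85, and with library totals they were at -0.78 and -0.68, no longer past 0.8. *FOS* was scarce, at 3.09 and 2.46 CPM against 1.38 and 1.29 CPM, with a log2 difference of -1.06 (SE 0.235, edgeR adjusted p of 0.00412). It was no longer called without miControl replicate 1, at -0.90, or without miControl replicate 2, at -1.24. *CCND1*, the cyclin D1 gene and the most abundant one not called, was at -0.32. At an unadjusted p below 0.05, 7 genes of the list were lower and 2 higher in the edgeR fit. *EPHA2*, named after its value was seen, was higher by 0.70 on the log2 scale at an adjusted p of 3.14e-04 (edgeR), short of the fold threshold, and with library totals it was called higher, at 0.87. Its adjusted p was above 0.01 with either miControl replicate left out.

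The ETS factors and CIC, which act on many ERK target genes, made up a list of 18 genes with 17 tested, of which 4 fell and 0 rose, with a median log2 fold change of -0.27. *ETV1*, the closest relative of *ETV5* on the list together with *ETV4*, was at 15.4 and 15.1 CPM with miControl and 7.25 and 7.19 CPM with miR-6133-5p. Both miR-6133-5p libraries were low, and the log2 fold change was -1.08 (SE 0.124, edgeR adjusted p of 2.56e-05). *ETV4*, named after its value was seen, was at -0.11 and did not pass. *ETV6* (-0.84), *ELK3* (-0.82) and *ERF* (-0.81), which encode repressors of the family, were called close to the threshold, and none of these 3 was called with library totals, at -0.68, -0.65 and -0.65. *ELK3* was at -0.78 without miR-6133-5p replicate 2 and *ERF* at -0.77 without miControl replicate 1. *ETS1*, the most abundant gene not called, was at -0.33, and 9 genes of the list were lower and 2 higher at an unadjusted p below 0.05 in the edgeR fit. At an adjusted p below 0.01 (edgeR) with no fold threshold, 10.9% of all genes were lower and 7.96% higher. In the list, 6 genes were lower and 1 higher at that setting. The uncalled ones among them, named after their values were seen, were *ELF4* (-0.797) and *ELK4* (-0.63), both lower, and *ETS2* (0.66), which was higher. *ELF4* was called lower by DESeq2 (-0.804), with RLE normalization (-0.81), with at least 10 counts in every library (-0.804), without miControl replicate 2 (-0.95) and without miR-6133-5p replicate 2 (-0.86). *ETS2* was called higher with library totals, at 0.82. With either miControl replicate left out *ELK4* and *ETS2* had adjusted p-values above 0.01, as did *ELF4* without miControl replicate 1. *ERG*, with 14 and 3 counts against 6 and 8, was not tested. Of 8 genes for partners of Sprouty proteins, 0 were called by edgeR or DESeq2, 3 were lower and 0 higher at an unadjusted p below 0.05 in the edgeR fit (20.3% and 20.0% of all genes), and the most abundant, *CAV1*, was at -0.35. *SIAH2*, which encodes a ubiquitin ligase and is named after its value was seen, was lower by less than the fold threshold, at -0.69 (edgeR adjusted p of 5.85e-04). It was called lower at -0.81 without miControl replicate 2, and its adjusted p was above 0.01 without miControl replicate 1. In the lists of the ERK cascade, other MAP kinase phosphatases, ERK-induced genes and ETS factors, in that order, DESeq2 called 1, 2, 4 and 5 genes lower and 0 higher in each, whereas library totals gave 0, 1, 2 and 1 lower and 2, 0, 1 and 1 higher. Among the other brakes on receptor kinases and RAS, DESeq2 called 4 genes lower and 1 higher, and library totals gave 2 lower and 1 higher. Of all genes, DESeq2 called 6.43% lower and 3.08% higher, of 15220 with an adjusted p. Library totals gave 709 lower and 977 higher of 18252 genes, so the calls shifted toward higher across all genes under that scaling. The genes of the lists with calls that glmTreat still called were *EGR1*, of the ERK-induced genes, and *CBLB*, of the other brakes.

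**Figure D3:**
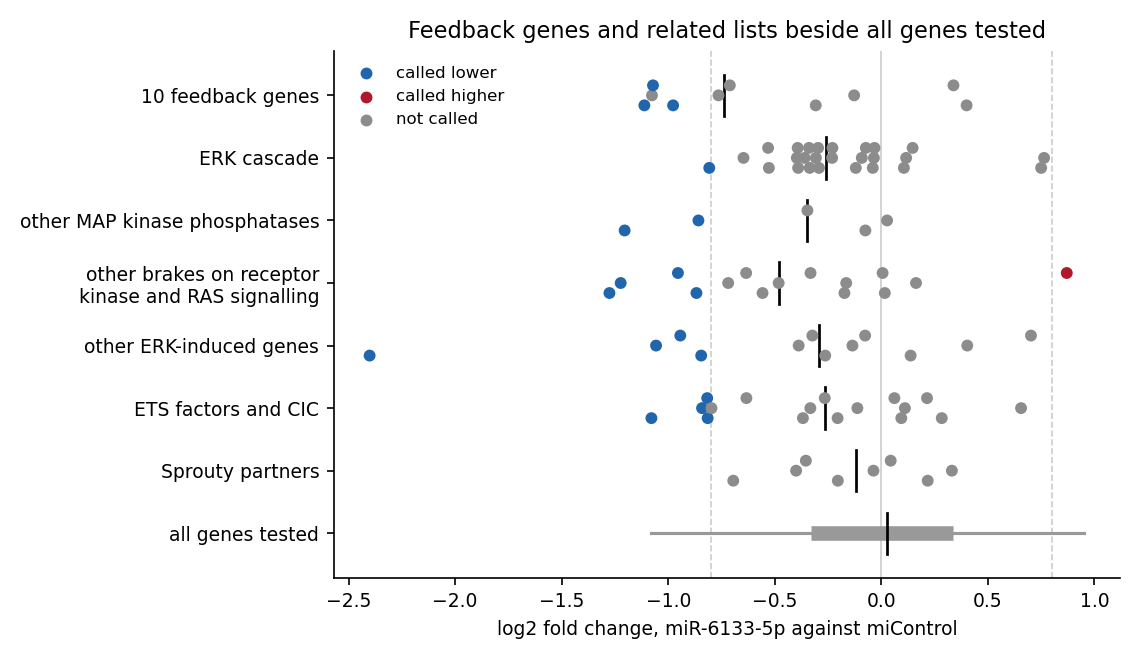
Log2 fold change of each tested gene of the 7 lists, 1 point per gene, with the list median as a black bar. For all genes tested, the thick bar spans the 25th to 75th percentile and the thin line the 5th to 95th. Dashed lines mark 0.8 in either direction. The medians of the lists lie between -0.74 and -0.12, and that of all genes is 0.03.

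Stellate cell markers were abundant in all 4 libraries. Their 8 genes summed to 9336 and 8735 CPM with miControl and 6425 and 5781 CPM with miR-6133-5p, with *SPARC* the most abundant, and 4 of the 8 were called lower (*COL1A1*, *COL1A2*, *ACTA2* and *TAGLN*) and 0 higher, against 5.54% and 2.90% of all genes. *TIMP1* went the other way, both miR-6133-5p libraries being above, at a log2 fold change of 0.42 (95% interval 0.17 to 0.66, adjusted p = 0.0134, edgeR) that did not pass. *SPARC* was lower at an adjusted p of 0.00784 (edgeR) by less than the fold threshold, at -0.40, and the libraries of the groups overlapped for *VIM* (-0.02) and *PDGFRB* (0.04). The 4 hepatocyte markers summed to 2.01 and 2.48 CPM against 2.81 and 2.34 CPM, almost all of it *SERPINA1*, and *TTR* had 0 counts in every library. The endothelial marker *CDH5* had 2 and 4 counts against 12 and 6, and *PECAM1* could not be matched to an identifier. The leukocyte markers *PTPRC* and *CD68* summed to 0.325 and 0.202 CPM against 0.199 and 0.303 CPM. The 3 cholangiocyte markers summed to 3.70 and 4.55 CPM against 6.79 and 7.30 CPM, mostly *KRT7*. *KRT7* was higher by 0.76 on the log2 scale at an adjusted p of 0.00317 (edgeR), short of the fold threshold. *KRT19*, not tested, had 2 and 4 counts against 10 and 18, with both miR-6133-5p libraries above, and *EPCAM* had 2 and 2 counts against 2 and 4. The part of these markers in the differences of the feedback genes was not tested.

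**Figure D4:**
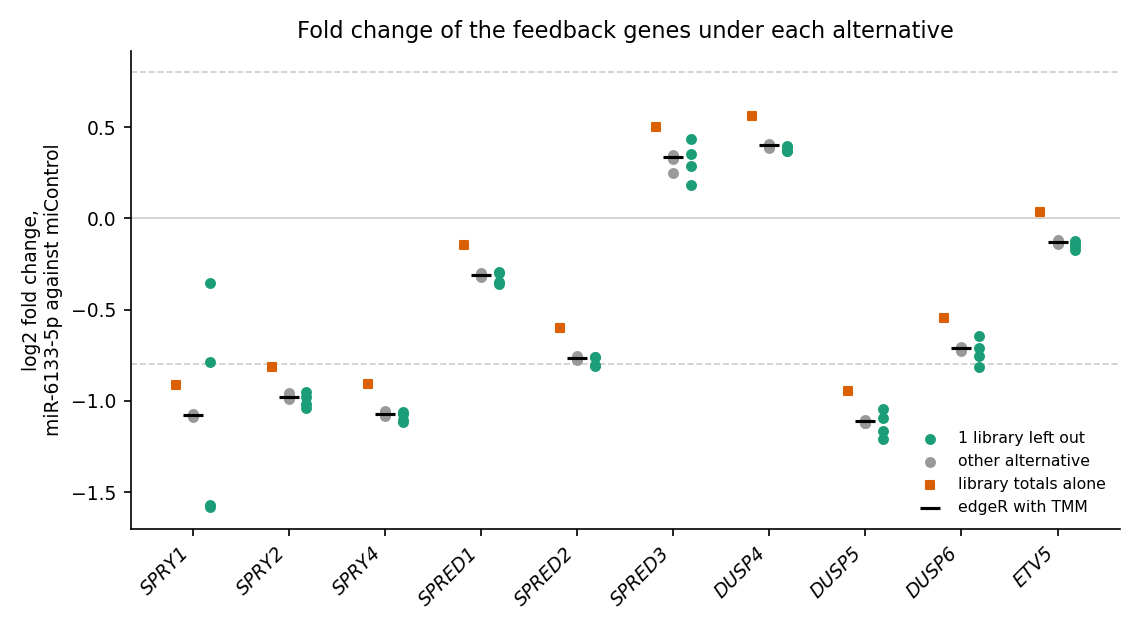
Log2 fold change of each feedback gene under the alternatives, with the edgeR and TMM value as a black bar. Green points leave out 1 library, orange squares use library totals alone and grey points are the other alternatives. *ETV5* crosses 0 with library totals, at 0.036, and *SPRY1* spreads from -1.58 to -0.35.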

How the data were processed

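The authors aligned read pairs to GRCh37 with STAR 2.5.3a, and the submitters' processing notes also name featureCounts and Subread 1.6.4. Gene counts, deposited as whole numbers without normalization, came to between 1.68 and 1.70 per uniquely mapped pair, so mates were counted singly. The strand setting and annotation release are not given in the sources used here. Identifiers were matched to symbols for 55665 of 63677 genes. Counts were filtered with filterByExpr, scaled with TMM and tested 2-sided with glmQLFTest in edgeR 4.0.16 (R 4.3.3), with Benjamini–Hochberg adjustment over 18252 genes. DESeq2 1.42.0 was an alternative. A count of 3 was at most 0.0610 CPM, and intervals for fold changes come from the fit. Standard errors were derived from the F statistic. The procedure was tested on simulated data, but no outcome is given here and no result rests on it. Positions, lengths and overlaps came from GENCODE lifted to GRCh37, and sequences from RefSeq. Named genes are the 10 feedback genes and, per list, every called gene up to 6 and the most abundant one not called. Genes of the lists that could not be tested are given by count, and *NRAS*, *MRAS*, *GAB1*, *RPS6KA1*, *EPHA2*, *ETV4*, *ETS2*, *ELF4*, *ELK4*, *LRIG3* and *SIAH2* were named after their values were seen. Some genes of the lists are not reported singly here. The members and lists were chosen with earlier results of these data known. The ETS and CIC promoter motifs were shortened after the longer forms gave no match. Counts of replicates differed beyond counting noise (chi-square over its degrees of freedom 13.9 for miControl, 52.2 for miR-6133-5p). Plots were drawn with matplotlib 3.10.9.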

Additional observations from a re-analysis of the deposited data

How the results depend on the processing

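*SPRY2*, *SPRY4* and *DUSP5* were called lower under every alternative run except glmTreat, which called 0 of the feedback genes, 326 genes lower and 80 higher in all. With no fold threshold, 5 feedback genes were lower (*SPRED2* and *DUSP6* besides), with 1984 genes lower and 1452 higher. With library totals alone, 977 genes were called higher and 709 lower. This scaling moved genes alike, so the change of sign of *ETV5*, to 0.036 on the log2 scale, says nothing about that gene itself. Leaving out 1 library at a time, on the assumption that the lone library varies like the other group, gave 3 to 5 feedback genes called lower, 770 to 1249 of all genes lower and 293 to 587 higher. Without miControl replicate 1, 293 genes were called higher. The cause of these shifts was not tested, apart from the stricter or looser thresholds themselves. No alternative called a feedback gene higher. With a replicate block, 3 feedback genes, 1130 genes lower and 642 higher were called, and *DUSP4* (0.40) was higher at an adjusted p of 0.00969 (edgeR), short of the fold threshold. The labels give only the replicate number, and the deviations of same-numbered libraries had a correlation of 0.049 across genes, which are not independent replicates. *SPRY1* could be tested under 11 of the 14 alternatives. Seed matches in 3′-UTRs were not run. Depth limits *SPRY1* and *SPRED3* most, and 2 libraries per group limit every estimate.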

Other observations

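Beyond the named lists, 13 further genes carry a DUSP symbol with a number, and 9 of them could be tested. Of these, 1 was called higher and 0 lower by edgeR, against 2.90% and 5.54% of all genes, and 4 were lower and 1 higher at an unadjusted p below 0.05, against 20.3% and 20.0% of all genes. The median log2 fold change was -0.18. *DUSP15* was at 2.16 and 2.17 CPM with miControl and 4.405 and 3.68 CPM with miR-6133-5p, both miR-6133-5p libraries being high. Its log2 fold change was 0.90 (SE 0.196, edgeR adjusted p of 0.00362). It was no longer called by glmTreat, at 0.88 without miControl replicate 1, at 0.88 without miControl replicate 2 or at 0.75 without miR-6133-5p replicate 1. *DUSP3*, the most abundant of these genes, was at 185 and 183 CPM against 129 and 128 CPM, a log2 fold change of -0.52 at an adjusted p of 0.00147 (edgeR), short of the fold threshold. The adjusted p of *DUSP3* was above 0.01 with library totals and with either miControl replicate left out. These genes were taken by their symbols after the data had been seen.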
